A study of Mus musculus with 6 samples.

Results

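The fibroblast growth factor (FGF) genes described here are 10 mouse genes, the ligands Fgf2, Fgf4, Fgf5, Fgf7, Fgf8 and Fgf10 and the receptors Fgfr1, Fgfr2, Fgfr3 and Fgfr4. They were taken from 22180 genes measured on Affymetrix Mouse Gene 2.0 ST arrays, by the probe sets whose annotation names that symbol alone. All 10 were found, through 11 probe sets, with 2 for Fgf10 and 1 for each of the others. They were measured in 6 RNA libraries, each the only library of its group.

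Of these libraries, 1 was labelled adult cardiomyocytes and 1 neonatal cardiomyocytes, both derived from mouse heart and with no age in days. Another 3 came from cultures of induced pluripotent stem (iPS) cells, reprogrammed cells that can form most cell types, at day 7 of cardiac differentiation. These cultures spent 5 days in suspension as embryoid bodies and were then plated on gelatin with 1% DMSO and 100 ng/ml NRG-1, with 100 ng/ml NRG-1 alone, or with 1% DMSO alone. The solvent DMSO can itself start differentiation, and neuregulin 1 (NRG-1) signals through ERBB receptors. The last library came from undifferentiated iPS cells, a line grown in serum with LIF on feeder cells, so RNA of feeder cells could be part of it. All 6 were labelled DBA/2J and female. No day 7 culture without DMSO and NRG-1 was part of the set, so a difference of a culture from iPS cells covers differentiation and treatment together.

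FGFs are secreted proteins that bind receptor tyrosine kinases together with heparan sulfate, and the bound receptor passes the signal through RAS to the kinase ERK. In mouse pluripotent cells FGF4 acts back on the cells that make it and moves them towards differentiation. In the embryonic heart FGF8 and FGF10 are ligands of the progenitor field, and FGF2, FGF7 and FGF10 pass between connective tissue and its neighbours, FGF7 and FGF10 mainly to the epithelial form of FGFR2.

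The promoter windows of the members whose values spread most over the libraries are shown first, because they are the genes the results below turn on. The sequences are RefSeq's on build GRCm38.p6, from 250 bases before to 50 bases after an annotated gene start, printed 5′ to 3′ on the strand of the gene. Capitals mark a match, on either strand, to the GC box GGGCGG, the CCAAT box CCAAT, the TATA box TATAAA, the octamer core TGCAAAT, the SOX motif CTTTGTT or the ETS motif CCGGAAG. Fgf4 lies at chr7:144861136-144861435 on the plus strand, Fgf2 at chr3:37348403-37348702 on the plus strand, and Fgf7 at chr2:126034408-126034707 on the plus strand. Fgfr3 has 2 annotated starts on the plus strand, with windows at chr5:33721474-33721773 and chr5:33722056-33722355.
Fgf4: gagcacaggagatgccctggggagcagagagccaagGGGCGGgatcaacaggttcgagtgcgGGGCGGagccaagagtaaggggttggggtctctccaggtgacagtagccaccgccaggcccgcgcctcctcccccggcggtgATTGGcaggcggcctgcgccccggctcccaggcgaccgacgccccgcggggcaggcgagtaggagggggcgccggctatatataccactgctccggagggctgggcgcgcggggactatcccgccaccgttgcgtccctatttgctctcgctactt
Fgf2: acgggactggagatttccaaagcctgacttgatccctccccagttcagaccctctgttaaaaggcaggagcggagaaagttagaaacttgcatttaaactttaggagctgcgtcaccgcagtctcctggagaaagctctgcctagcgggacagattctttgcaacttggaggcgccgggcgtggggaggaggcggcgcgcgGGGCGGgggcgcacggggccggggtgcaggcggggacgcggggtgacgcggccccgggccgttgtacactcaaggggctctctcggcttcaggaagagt
Fgf7: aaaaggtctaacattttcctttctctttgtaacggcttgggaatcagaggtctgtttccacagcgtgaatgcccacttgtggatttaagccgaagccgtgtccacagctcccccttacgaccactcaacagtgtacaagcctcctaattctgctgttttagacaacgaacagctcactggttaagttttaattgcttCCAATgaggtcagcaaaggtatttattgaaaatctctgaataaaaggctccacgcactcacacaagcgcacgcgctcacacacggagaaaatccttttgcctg
Fgfr3 upstream start: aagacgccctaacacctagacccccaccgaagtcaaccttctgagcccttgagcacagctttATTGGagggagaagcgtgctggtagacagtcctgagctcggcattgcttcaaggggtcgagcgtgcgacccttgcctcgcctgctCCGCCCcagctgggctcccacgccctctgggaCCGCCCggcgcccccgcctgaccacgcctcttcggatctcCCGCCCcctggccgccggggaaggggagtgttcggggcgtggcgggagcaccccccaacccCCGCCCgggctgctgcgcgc
Fgfr3 downstream start: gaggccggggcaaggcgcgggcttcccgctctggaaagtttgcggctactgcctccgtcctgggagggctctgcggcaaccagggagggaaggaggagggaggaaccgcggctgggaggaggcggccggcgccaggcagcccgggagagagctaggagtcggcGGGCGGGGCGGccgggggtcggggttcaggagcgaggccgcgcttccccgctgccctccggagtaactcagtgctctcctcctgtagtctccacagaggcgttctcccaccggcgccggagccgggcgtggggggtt

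These windows differ in base composition. The Fgf4 window had 28 CG dinucleotides and 69.7% G or C, the Fgf2 window 24 and 62.7%, and the Fgf7 window 11 and 45.7%. The Fgfr3 windows had 26 and 30 CG dinucleotides, and the median over 32851 windows outside chromosome 18 was 7. GC boxes were matched at 2 places in Fgf4, at 1 in Fgf2 and at none in Fgf7, at 4 places at the upstream and 2 overlapping places at the downstream start of Fgfr3, and 35.7% of all windows held one. A CCAAT box was matched once in Fgf4, once in Fgf7 and once at the upstream start of Fgfr3, beside 37.4% of all windows. The TATA box, octamer core, SOX and ETS letters had no match in these 5 windows and were held by 13.6%, 4.02%, 5.85% and 8.86% of all windows. Of the 10 members, 8 had a window in the table. Of these 8, only Fgf10 had a match to the octamer core and only Fgf5 one to the TATA box. The Fgf5 match began at base 35 of the gene, downstream of its annotated start. A match is a stretch of letters and not a measured site.

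Values are log2 expression as the authors deposited them, and their quartiles in the 6 libraries lay between 3.87 and 6.98. Without replicates no difference could be tested. A gene was counted as higher or lower in a comparison when its values lay at least 2-fold apart (1 on the log2 scale) and the higher of them reached 5.20, the median over the whole table. The only gauge of error was the SD with which 2 probe sets of the same gene disagreed, between 0.55 and 0.60 for differences from iPS cells and between 0.20 and 0.34 for the others. It came from genes whose 2 probe sets both reached that median, and it does not cover the spread between libraries of the same kind. Results were also computed with every array shifted to an equal median of 10 housekeeping genes or, chosen after the data were seen, of 63 ribosomal protein genes. Values under these shifts are given where they end or start the count of a member. The labels were checked against markers. Of 12 cardiomyocyte genes, the adult library had 1 counted as higher than in iPS cells and the neonatal library 3, against 7, 5 and 8 in the cultures with DMSO and NRG-1, NRG-1 and DMSO, and Myh6, the main heavy chain of the adult mouse heart, stood at 5.05, 6.47, 7.03, 5.93, 7.04 and, in iPS cells, 5.82. All 12 fibroblast genes were higher in both heart-derived libraries, so these are named here only by their labels. The Y-linked gene Eif2s3y stood at 8.15 in the adult and 6.20 in the neonatal library, against at most 3.32 in the rest, which goes against the label female. Xist, an RNA of female cells, stood at 3.39 in the adult and 8.78 in the neonatal library, and between 5.97 and 6.91 in the rest. The neonatal library thus held both RNAs and the adult one mainly Eif2s3y, so these libraries differ in sex-linked RNA too. Since each group is a single library, no result could be given without a library that stands apart.

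Fgf4 was highest in iPS cells, Fgf2 in the neonatal and Fgf7 in the adult library, while Fgfr3 and Fgfr4 were higher in the 3 cultures than in both heart-derived libraries. Fgf5, Fgf8 and Fgf10 stayed near or below the median of all values. Of the 10 members, 9 reached that median in at least 1 library and 3, namely Fgf4, Fgfr1 and Fgfr2, in all of them. In RNA from a mixture of cells, fewer cells that make a transcript and less of it per cell cannot be told apart.

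**Figure D1:**
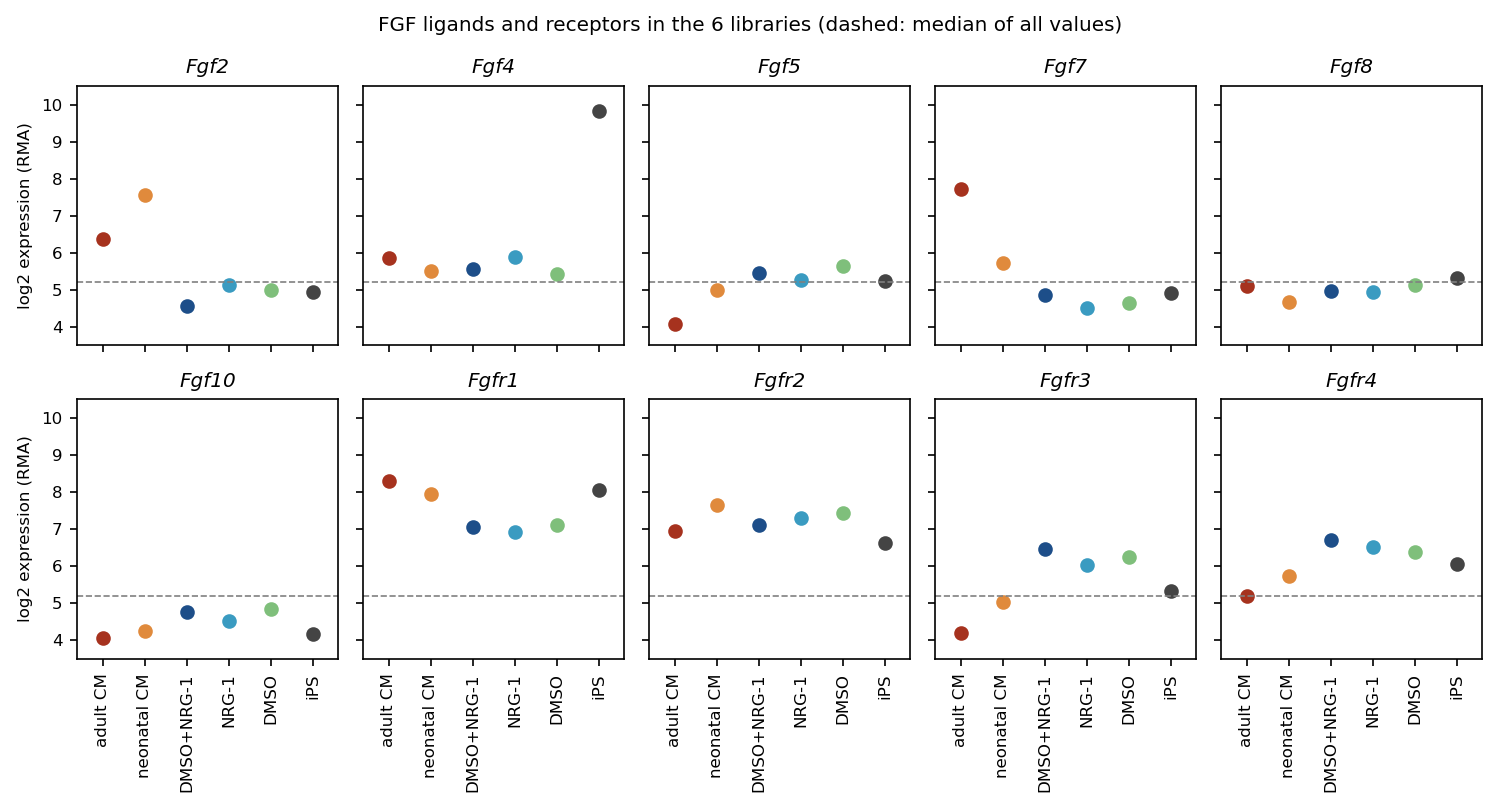
Log2 expression (RMA values, vertical axis) of the 10 genes in each library, with 1 point per library and a dashed line at the median of all values, 5.20. Fgf4 stands between 5.43 and 5.89 in the other libraries and at 9.82 in iPS cells, Fgf2 and Fgf7 are highest in the heart-derived libraries, and Fgfr3 and Fgfr4 are higher in the 3 cultures than in the heart-derived libraries.

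Fgf4, the ligand through which mouse pluripotent cells activate ERK, had the widest range of the members, 4.38 on the log2 scale. Its level was 5.86 in the adult library, 5.51 in the neonatal one, 5.57 with DMSO and NRG-1, 5.89 with NRG-1, 5.43 with DMSO and 9.82 in iPS cells. The iPS library thus stood alone, and the 5 others lay within 0.46 of each other. The difference from iPS cells was -3.96 for the adult and -4.30 for the neonatal library, and -4.25, -3.92 and -4.38 for the cultures with DMSO and NRG-1, NRG-1 and DMSO. The smallest of these, with NRG-1, is a 15.2-fold lower value, and the largest, with DMSO, a 20.9-fold lower one. Each exceeded 2 times the probe set SD, which was at most 1.20. These differences share the iPS library, so they are not separate observations of it.

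The pluripotency list moved with Fgf4, with 12 of 12 genes counted as lower in every library except the NRG-1 culture, where it was 11 of 12. Their summed linear level was 524 in the adult library, 541 in the neonatal one, 874, 861 and 922 in the cultures with DMSO and NRG-1, NRG-1 and DMSO, and 16577 in iPS cells. The transcription factor Sox2, which with OCT4 is known to act on the Fgf4 gene in mouse, stood at 4.76, 4.60, 7.24, 6.70, 7.89 and, in iPS cells, 11.49. Sox2 in the cultures thus lay above its heart-derived levels, whereas Fgf4 in the cultures overlapped with them. The part of the pluripotent cells in the Fgf4 difference was not tested.

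Fgf5, a ligand of the mouse epiblast that is low in naive pluripotent cells, had a level of 4.07 in the adult library, 4.98 in the neonatal one, 5.46 with DMSO and NRG-1, 5.27 with NRG-1, 5.63 with DMSO and 5.22 in iPS cells. The 3 cultures lay above both heart-derived libraries. Fgf5 was counted as lower in the adult library than in iPS cells, with a difference of -1.15. That value was within 2 times the probe set SD of 0.60, and the count ended under both shifts, with -1.13 under the housekeeping and -0.77 under the ribosomal one. Under the ribosomal shift Fgf5 was counted as higher in DMSO minus iPS, at 1.05. As deposited, the iPS level lay just above the median of all values. Of 6 genes of the primed epiblast, 3 were counted as lower and 1 as higher than in iPS cells in each of the 5 libraries, among them Dnmt3b, a DNA methyltransferase, at most 6.40 in these libraries and 10.24 in iPS cells.

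Fgf2, a ligand that lacks a classical secretion signal and is made by many mesenchymal cells, had a level of 6.36 in the adult library, 7.55 in the neonatal one, 4.57 with DMSO and NRG-1, 5.13 with NRG-1, 5.00 with DMSO and 4.93 in iPS cells. Both heart-derived libraries lay above the 4 others, which were below the median of all values. The difference from iPS cells was 2.62 (6.15-fold) in the neonatal and 1.43 (2.69-fold) in the adult library, both more than 2 times the probe set SD. Adult minus neonatal was -1.19, beyond 2 times the SD of that comparison, 0.69.

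Fgf7, the keratinocyte growth factor made by connective tissue, had a level of 7.73 in the adult library, 5.71 in the neonatal one, 4.87 with DMSO and NRG-1, 4.49 with NRG-1, 4.64 with DMSO and 4.92 in iPS cells. The adult library stood apart. Its difference from iPS cells was 2.81 (7.02-fold) and from the neonatal library 2.02 (4.05-fold), while the neonatal library differed from iPS cells by 0.79, under 2-fold, or by 1.26 after the ribosomal shift. Fgf2 and Fgf7 therefore ran opposite ways between the heart-derived libraries, Fgf2 lower and Fgf7 higher in the adult one.

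Fibroblast genes were high in the libraries where these 2 ligands were highest. Part of them were also above iPS cells in the cultures, where neither ligand was counted as higher. All 12 were counted as higher than in iPS cells in the adult and in the neonatal library, and 8, 7 and 8 with DMSO and NRG-1, NRG-1 and DMSO. Their summed linear level was 31761 in the adult library, 22991 in the neonatal one, 7261, 5867 and 7611 in the cultures in the same order, and 1419 in iPS cells. Between adult and neonatal, 2 of 12 fibroblast genes and 4 of 6 macrophage genes were counted as higher. Macrophage genes summed to 1065 in the adult and 376 in the neonatal library. Their sum was 2899, 2293 and 2736 in the cultures, in the same order, and 414 in iPS cells. Among them, Cd68 and Csf1r were higher in the cultures than in the adult library, and the rest were lower. None of these lists' part in the Fgf2 and Fgf7 differences was tested.

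Fgf8, a ligand of gastrulation and of the heart progenitor field, had a level of 5.10 in the adult library, 4.66 in the neonatal one, 4.96 with DMSO and NRG-1, 4.93 with NRG-1, 5.12 with DMSO and 5.31 in iPS cells. It reached the median of all values in iPS cells alone and was counted in none of the 9 comparisons. Fgf10, which signals to epithelium and marks heart progenitors in mouse, had a level of 4.05 in the adult library, 4.24 in the neonatal one, 4.76 with DMSO and NRG-1, 4.50 with NRG-1, 4.83 with DMSO and 4.17 in iPS cells. All 6 values lay below the median. The 2 probe sets of Fgf10 did not run together, one having its highest value of 5.52 with DMSO and the other its highest value of 4.69 with DMSO and NRG-1. With the brighter probe set alone, DMSO minus iPS was 1.01 for Fgf10 and would have been counted.

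Fgfr1, the receptor through which FGF4 mainly acts in mouse pluripotent cells, had a level of 8.28 in the adult library, 7.96 in the neonatal one, 7.04 with DMSO and NRG-1, 6.92 with NRG-1, 7.12 with DMSO and 8.06 in iPS cells. The 3 cultures lay below the 3 other libraries. The difference from iPS cells was -1.02 with DMSO and NRG-1, -1.14 with NRG-1 and -0.94 with DMSO, all within 2 times the probe set SD. The first 2 were counted as lower, and neither was counted when the arrays were set to equal housekeeping or equal ribosomal protein medians, where they were -0.95 and -0.88, and -0.36 and -0.76.

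Fgfr2, whose splice forms serve epithelium and mesenchyme, had a level of 6.94 in the adult library, 7.65 in the neonatal one, 7.09 with DMSO and NRG-1, 7.29 with NRG-1, 7.42 with DMSO and 6.62 in iPS cells. iPS cells were lowest, and the cultures lay between the adult and neonatal values. The neonatal library was counted as higher than iPS cells, with a difference of 1.04 that was within 2 times the probe set SD. After the ribosomal shift the cultures were counted as higher too, at 1.14, 1.05 and 1.45 with DMSO and NRG-1, NRG-1 and DMSO. The values are per gene and do not separate the splice forms.

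Fgfr3, a receptor best known for restraining bone growth, had a level of 4.20 in the adult library, 5.03 in the neonatal one, 6.46 with DMSO and NRG-1, 6.03 with NRG-1, 6.23 with DMSO and 5.33 in iPS cells. The cultures were highest and the heart-derived libraries lowest, with iPS cells between them. The difference from iPS cells was 1.13 with DMSO and NRG-1, 0.70 with NRG-1 and 0.90 with DMSO, and -1.14 in the adult library. Only the first passed 2 times its probe set SD, which was 1.12. The adult difference was -0.76 after the shift to equal ribosomal protein medians. Those with NRG-1 and DMSO were then 1.08 and 1.55 and were counted as higher.

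Fgfr4, the receptor that serves bile acid control by FGF15 in mouse liver, had a level of 5.19 in the adult library, 5.73 in the neonatal one, 6.70 with DMSO and NRG-1, 6.51 with NRG-1, 6.38 with DMSO and 6.04 in iPS cells. As for Fgfr3, the cultures were highest, the heart-derived libraries lowest and iPS cells between them. As deposited, no difference of Fgfr4 from iPS cells reached 2-fold, the widest being -0.86 in the adult library. After the ribosomal shift Fgfr4 was counted as higher with DMSO and NRG-1, at 1.31. Of the 10 members, Fgf5, Fgfr3 and Fgfr4 reached the median of all values and were higher in all 3 cultures than in both heart-derived libraries, as did 18.8% of all genes, and Fgf10 ran the same way below that median. Fgf2, Fgf7 and Fgfr1 reached the median and were lower in all 3 cultures, as did 18.9% of all genes.

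Epithelial and endoderm genes were highest in the cultures, as Fgfr3 and Fgfr4 were. In the heart-derived libraries, where both receptors lay below iPS cells, the epithelial sum was also lower than in iPS cells. Of its 7 genes, 0 were counted as higher and 5 as lower in the adult library, and 2 and 4 in the neonatal one. These 2 were Krt18, at 9.53 against 7.34 in iPS cells, and Krt19, at 7.61 against 6.09. The endoderm sum was higher in both heart-derived libraries than in iPS cells, but in each only 1 of 8 genes, Gata6, was counted as higher. It stood at 9.49 in the adult and 10.08 in the neonatal library and at 7.96 in iPS cells. The median differences of the endoderm genes were 0.38 and -0.01. The summed linear level of 7 epithelial genes was 426 in the adult library, 1451 in the neonatal one, 15804, 15469 and 17136 with DMSO and NRG-1, NRG-1 and DMSO, and 1928 in iPS cells. That of 8 endoderm genes was 1235, 1460, 6375, 8481, 5907 and, in iPS cells, 655. In each culture 6 of the 7 epithelial genes were counted as higher than in iPS cells. Their part in the receptor differences was not tested.

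Counts over the 10 members stood beside those over all genes as follows. In the adult library 2 members were higher than in iPS cells and 3 lower, beside 8.12% and 8.75% of all genes. In the neonatal library 2 were higher and 1 lower, beside 7.93% and 6.87%. With DMSO and NRG-1, 1 was higher and 2 lower, beside 8.02% and 8.08%. With NRG-1, 0 were higher and 2 lower, beside 7.01% and 9.01%. With DMSO, 0 were higher and 1 lower, beside 8.11% and 8.25%. With 10 members, 1 gene moves such a share by more than the shares themselves. The members' median difference was -0.16, -0.17, 0.09, 0.12 and 0.20 in the same order, and that of all genes was between -0.04 and 0.00. After the ribosomal shift the members' medians in the adult and neonatal libraries were 0.22 and 0.29, of opposite sign.

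**Figure D2:**
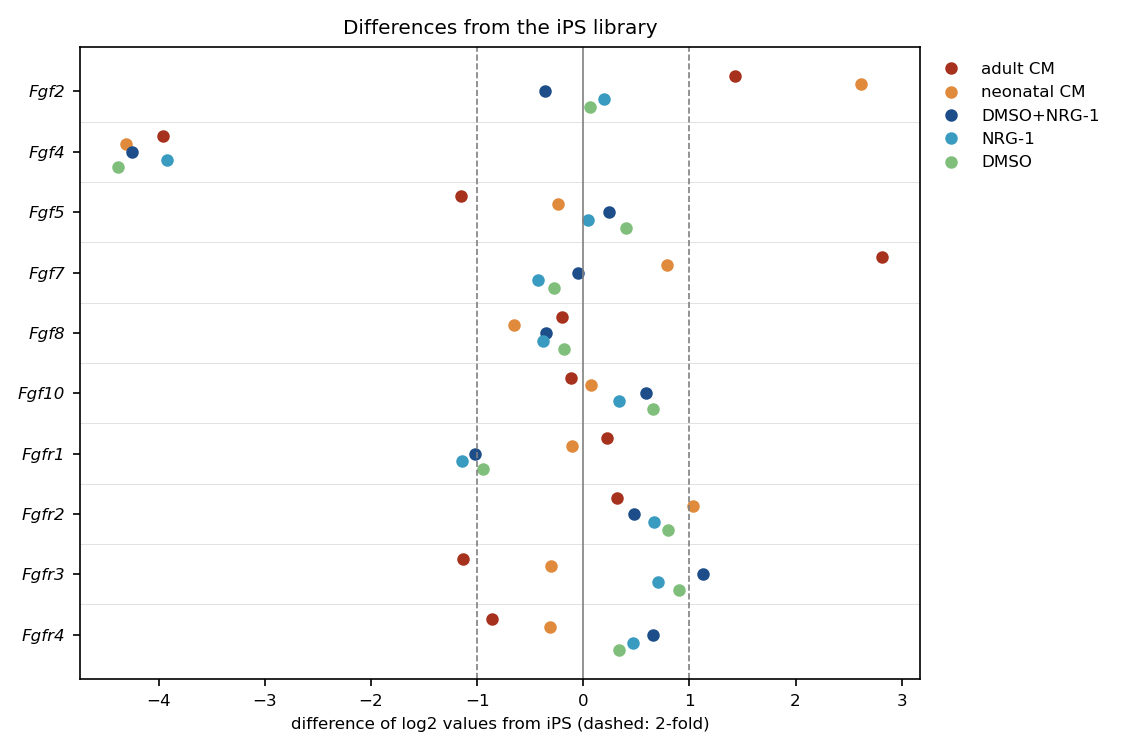
Difference of log2 values from the iPS library (horizontal axis) for each gene, with 1 point for each of the 5 other libraries and dashed lines at 2-fold. Fgf4 is lower by 3.92 to 4.38 in all of them, Fgf7 is 2.81 higher in the adult library, and Fgf2 is 2.62 higher in the neonatal one.

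The adult and neonatal libraries were compared to describe how the heart-derived libraries differ. Fgf7 was counted as higher and Fgf2 as lower in the adult one, beside 1.5% and 1.74% of all genes. Fgf5, Fgfr2 and Fgfr3 differed by -0.91, -0.72 and -0.83, beyond 2 times the probe set SD of this comparison, 0.69, but under 2-fold. Fgf5 and Fgfr3 lay below the median of all values in both libraries. The SD, taken from brighter genes, does not gauge them. The median over the 10 members was -0.37 and that over all genes 0.00.

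The 3 cultures were compared to ask what NRG-1 and DMSO did to the members. No member was 2-fold apart in any of the 3 comparisons. For NRG-1 minus DMSO, 0.216% of all genes were counted as higher and 1.07% as lower. For DMSO and NRG-1 minus DMSO the shares were 0.0271% and 0.0316%, and for DMSO and NRG-1 minus NRG-1 they were 0.649% and 0.176%. The widest difference of a member was that of Fgf2, -0.56 for DMSO and NRG-1 minus NRG-1. It was within 0.60, which is 2 times the probe set SD of that comparison. For DMSO and NRG-1 minus DMSO, Fgf2 differed by -0.43, which passed 2 times the SD of that comparison, 0.39. Fgf2 lay below the median of all values in all 3 cultures, so these SDs, taken from brighter genes, do not gauge it. Fgf4 had its widest difference, 0.46, for NRG-1 minus DMSO, and Fgfr3 its widest, 0.43, for DMSO and NRG-1 minus NRG-1. With single libraries, differences of this size cannot be told apart from the spread between cultures.

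**Figure D3:**
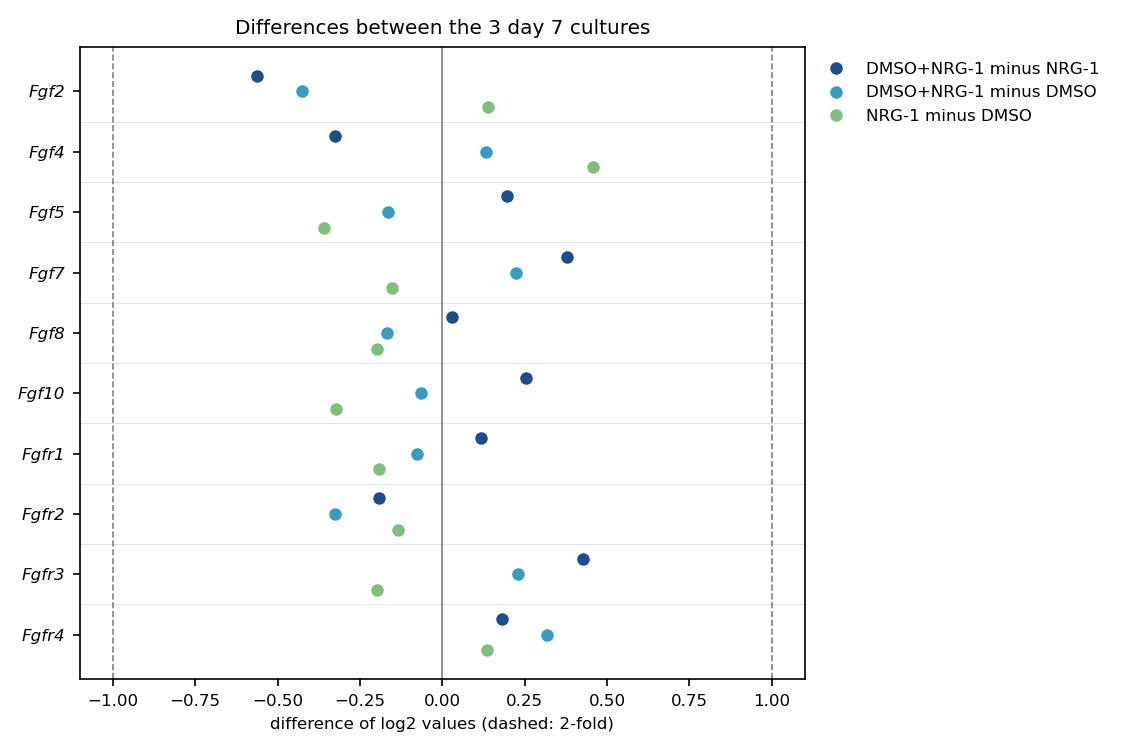
Difference of log2 values between the day 7 cultures (horizontal axis) for each gene, with 1 point for each of the 3 comparisons and dashed lines at 2-fold. The points run from -0.56 for Fgf2 to 0.46 for Fgf4.

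The 12 other FGF ligands were measured too. Of these, Fgf18, a ligand of bone and lung, was counted as higher than in iPS cells in the adult library (1.33), as was Fgf21, a metabolic hormone (1.20). Fgf3, a ligand of the inner ear and tail, was counted as higher with NRG-1 (1.02), and Fgf23, the phosphate hormone, in adult minus neonatal (1.31). No other difference among them was counted. Fgf3 stood at 5.70, 5.92 and 5.67 with DMSO and NRG-1, NRG-1 and DMSO, and at 4.90 in iPS cells. Its count ended with the filter at the 75th percentile and under cyclic loess, another way of scaling the arrays, at 0.89. After the ribosomal shift Fgf3 was counted in the other cultures too, at 1.46 with DMSO and NRG-1 and 1.42 with DMSO. Fgf1, Fgf6, Fgf15, Fgf17 and Fgf22 reached the median of all values in at least 1 library, and Fgf9, Fgf16 and Fgf20 in none.

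Among 10 co-receptors and binding proteins, up to 5 were counted in a comparison with iPS cells. Fgfbp1, which frees FGFs from the matrix, had a level of 4.76 in the adult library, 4.21 in the neonatal one, 9.14 with DMSO and NRG-1, 9.60 with NRG-1, 9.54 with DMSO and 7.60 in iPS cells. Klb, beta-Klotho, the co-receptor that FGF15 and FGF21 need, had 4.52, 4.13, 7.90, 8.38, 7.72 and, in iPS cells, 6.21. Both were thus higher in the cultures and lower in the heart-derived libraries than in iPS cells. Flrt3, a membrane protein shown in Xenopus to aid FGF signalling, was higher than in iPS cells by 3.77 with DMSO and NRG-1, by 3.02 with NRG-1 and by 3.31 with DMSO, and differed by -0.08 and -0.28 in the adult and neonatal libraries. Cdh2, N-cadherin, which binds FGFR1, ran the other way, 3.67 and 3.44 higher in the adult and neonatal libraries. Flrt2 was higher by 2.52, 2.52 and 2.17 in the cultures and by 1.78 in the neonatal library, and Ncam1, a cell adhesion molecule, by 1.05 in the neonatal library. Ncam1 stood close to that in the adult library, at 8.96 against 9.06 in the neonatal one and 8.01 in iPS cells. Its neonatal count ended with probe sets of several symbols included, at 0.75. The adult library was counted under cyclic loess, at 1.02, and under the ribosomal shift, at 1.33. Of the 10 genes, 1 was higher and 2 lower in the adult library, 3 higher and 2 lower in the neonatal one, and 4 higher and 0 lower in each culture, with medians of 0.27, 0.22, 0.26, 0.04 and 0.23. The klotho gene Kl itself stayed between 4.34 and 4.73.

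Part of the FGF target and feedback genes stood lower in the cultures than in iPS cells. Of 14 genes, 7 were counted as lower with DMSO and NRG-1, 6 with NRG-1 and 6 with DMSO, and 0, 0 and 1 as higher, with medians of -0.99, -0.92 and -0.84. After the shift to equal ribosomal protein medians 4 were lower in each culture, 4, 1 and 5 were higher, and the medians were -0.33, -0.54 and -0.20. Those furthest below iPS cells were Spry4 and the ETS factors of the pathway, Etv1, Etv4 and Etv5. Etv5 had a level of 6.64 in the adult library, 6.33 in the neonatal one, 5.69 with DMSO and NRG-1, 5.54 with NRG-1, 5.75 with DMSO and 8.02 in iPS cells. Its probe sets disagreed, and by the brightest alone it differed from iPS cells by -0.65, -0.62 and -0.69 in the cultures and by -0.38 and -0.72 in the adult and neonatal libraries, none of them counted. Etv4 differed from iPS cells by -2.15, -1.94 and -1.68 and Etv1 by -2.35, -2.53 and -1.99 in the cultures, in the same order. Spry4, an inhibitor that the pathway itself induces, differed by -2.24, -2.86 and -2.64, and the related Spred1 and Spred2 by -1.06 to -1.30. Neither Spred1 nor Spred2 was counted in the cultures after the ribosomal shift. Dusp6, the phosphatase of ERK, differed by -0.70, -0.88 and -0.30 and was not counted, but by its brightest probe set it differed by -1.03 with DMSO and NRG-1 and -1.76 with NRG-1.

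In the heart-derived libraries the same list went both ways. The adult library had 4 genes higher and 3 lower and the neonatal one 3 higher and 3 lower, with medians of -0.11 and -0.15. Spry1 was higher by 2.24 and 2.21 and Spred3 by 1.83 and 1.47 in the adult and neonatal libraries, whereas Etv5 differed by -1.38 and -1.69 and Il17rd, a membrane antagonist of FGF receptors, by -1.47 and -2.02. Egr1, an immediate early gene that many stimuli and tissue handling induce, was higher by 1.76 in the adult library. Dusp4, another ERK phosphatase, was the 1 gene of the list counted between cultures, at -1.19 for NRG-1 minus DMSO. It was -0.96 and not counted under the housekeeping shift, and by the brightest probe set Dusp6 was counted too, at -1.07. ERK carries the signals of ERBB and other receptors too, so these genes are not readouts of FGF alone.

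**Figure D4:**
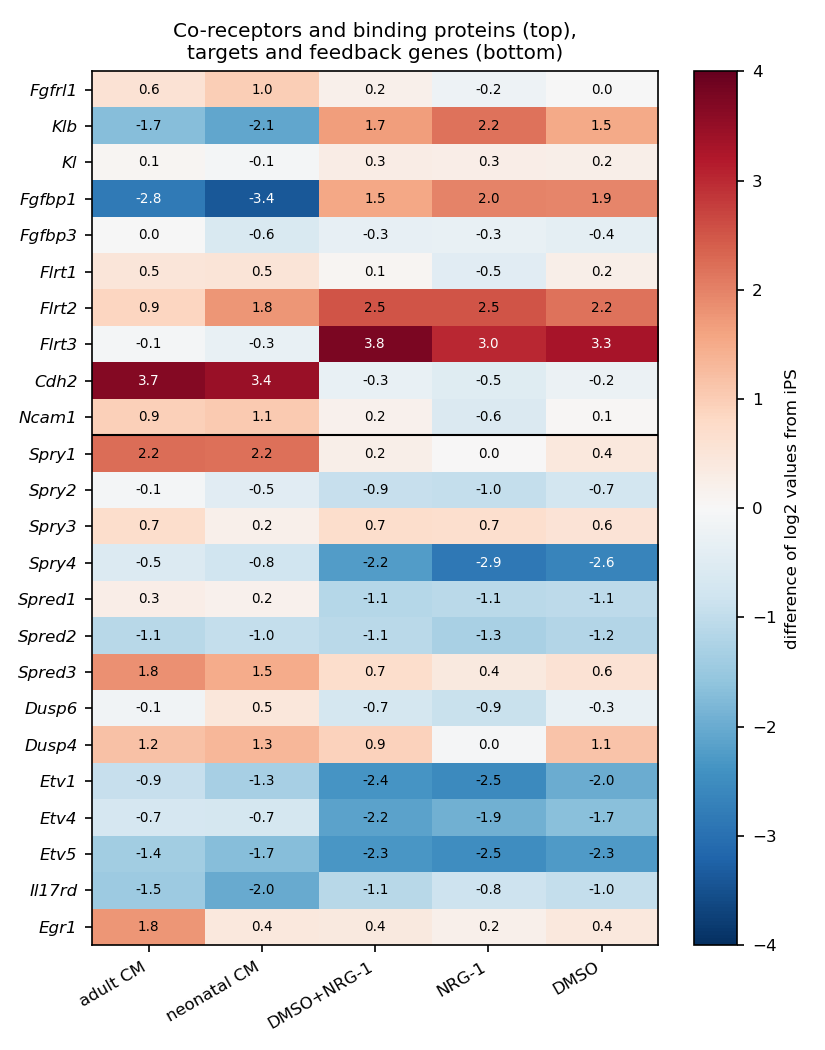
Difference of log2 values from iPS cells (colour and printed values) for 10 co-receptors and binding proteins and 14 target and feedback genes in the 5 other libraries. Fgfbp1 and Klb are lower in the heart-derived libraries and higher in the cultures, and Etv1, Etv4, Etv5 and Spry4 are lowest in the cultures.

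Genes of heparan sulfate, the co-factor of FGF binding, were mostly higher in the heart-derived libraries than in iPS cells. Of 18 measured, 11 were counted as higher and 2 as lower than in iPS cells in the adult library and 11 and 1 in the neonatal one, with medians of 1.18 and 1.16. The cultures had 4, 3 and 3 higher and 1, 3 and 1 lower with DMSO and NRG-1, NRG-1 and DMSO, and medians of 0.51, 0.44 and 0.43. The ribosomal shift raised the counts of higher genes in the cultures to 11, 7 and 12, and the housekeeping shift that with NRG-1 to 7. The housekeeping shift left 1 lower with NRG-1 and 0 in the neonatal library. The glypican Gpc6 was 8.02-fold and 5.15-fold higher in the adult and neonatal libraries and 5.10-fold, 3.56-fold and 4.33-fold higher in the cultures. The syndecan Sdc2 was higher by 2.85 and 3.29 in the adult and neonatal libraries. Gpc3, an X-linked glypican, differed most between the heart-derived libraries, with levels of 5.38 in the adult and 8.74 in the neonatal one. Sulf1, which trims sulfate and so alters FGF binding, differed by 2.19 and 1.28 in the adult and neonatal libraries, and by -1.43, -1.71 and -1.46 in the cultures, of which the first and the last were -0.77 and -0.82 and not counted under the ribosomal shift. Fibroblast genes, given above, moved with this list.

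Few genes that relay the signal inside the cell were counted. Of the 17 listed, 11 were measured by a probe set of their own. Gab1, an adaptor of the pathway, was lower than in iPS cells in every library, with -2.81 and -2.30 in the adult and neonatal libraries and -1.21, -1.36 and -1.44 in the cultures with DMSO and NRG-1, NRG-1 and DMSO. With NRG-1, Plcg1, a phospholipase bound by FGF receptors, and Shc1, an adaptor, were also counted as lower, at -1.25 and -1.06. Both counts ended under the housekeeping shift, at -0.99 and -0.79, and under the ribosomal one, at -0.87 and -0.67. The other cultures lay close, with Plcg1 at 7.46, 7.13 and 7.40 in the same order and 8.38 in iPS cells. Shc1 stood at 8.01, 7.90 and 7.99 in the cultures and 8.96 in iPS cells. Gab1 was not counted in the cultures under the ribosomal shift, at -0.55, -0.97 and -0.79. The phosphatase Ptpn11, which FGF receptors need to activate RAS, was counted as higher in the adult library, at 1.10. Ptpn11 stood at 9.25 and 9.12 in the adult and neonatal libraries, 9.03, 9.09 and 8.97 in the cultures and 8.16 in iPS cells. Under the housekeeping shift it was also counted in the neonatal library, at 1.06, and with NRG-1, at 1.19. Under the ribosomal one it was also counted in the neonatal library, at 1.43, and in the cultures, at 1.53, 1.31 and 1.46. In the order adult, neonatal, DMSO and NRG-1, NRG-1 and DMSO, the medians of these 11 genes were -0.07, -0.29, -0.11, -0.37 and -0.09.

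The genes whose values ran most like a member's were sought by the root mean square difference of log2 values, each gene centred on its own mean, over the 6 libraries and among 13229 genes that reached the median of all values in at least 1 of them. Only members with a range of 2 or more on the log2 scale entered. For Fgf4 these were Calcoco2 (0.145), the TGF-beta family ligand Gdf3 (0.156) and Mylpf, a light chain of fast muscle myosin (0.159). For Fgf2 they were Nsg1 (0.161), the protocadherin Pcdh18 (0.175) and the potassium channel subunit Kcnab1 (0.196). For Fgf7 they were Serpinf1 (0.161), the channel-like Ano4 (0.169) and the chemokine Ccl3 (0.174), and for Fgfr3 the kinase Map3k1 (0.101), the amino acid transporter Slc38a1 (0.101) and the phosphatase Ppm1l (0.133). With 6 points and large steps between the libraries, many genes lie close to each member, and likeness here describes only these values.

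**Figure D5:**
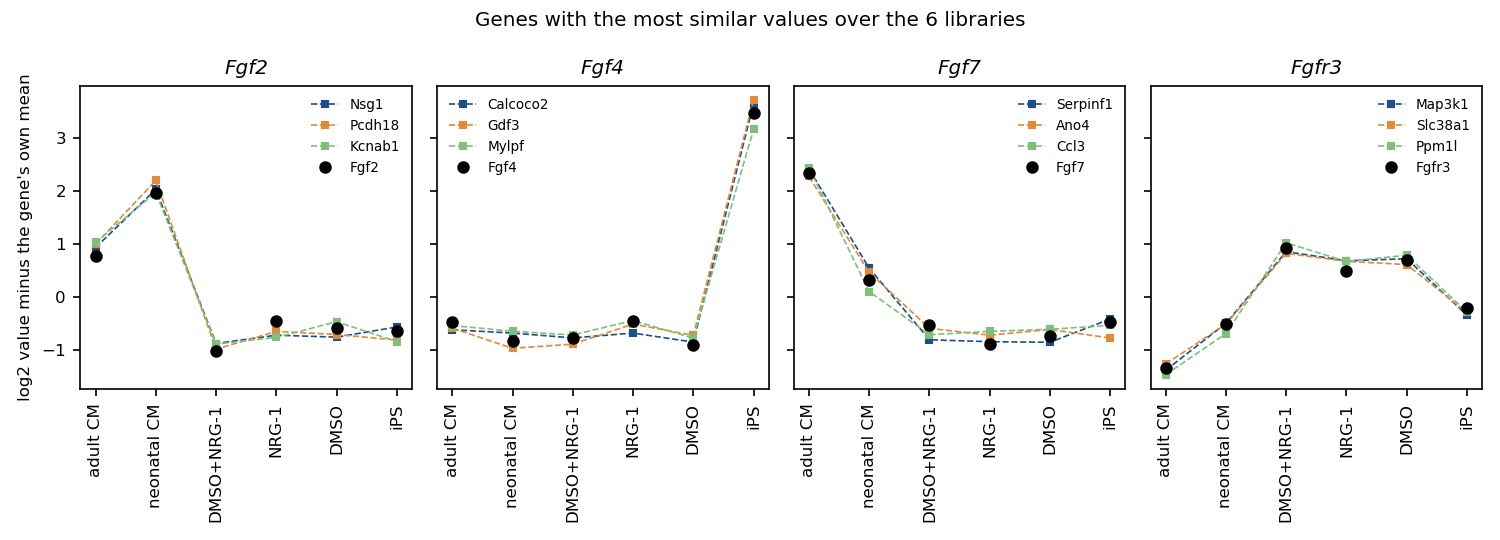
Log2 values centred on each gene's own mean (vertical axis) in the 6 libraries for Fgf2, Fgf4, Fgf7 and Fgfr3 (black points) and the 3 genes closest to each (dashed lines, which join libraries only to guide the eye). The closest genes differ from the member by 0.101 to 0.196 (root mean square).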

How the data were processed

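RNA of the 6 libraries was extracted with TRIzol and columns and labelled from total RNA, per the labels' protocols. The authors deposited log2 expression values for 41345 probe sets. The submitters' processing notes name RMA, a method that subtracts background, gives the arrays 1 distribution and summarises probes. Its version is not given in the sources used here. That values are logged to base 2 was inferred from their range. Sorted arrays lay within 0.285 of each other, which hides any change in total RNA, and detection values were not used here.

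Probe sets were named by the platform annotation, 23521 with 1 symbol, 1814 with several and 16010 unnamed here, and a gene's value was the mean over its probe sets with that symbol alone. No coordinates of probe sets are given. The 9 comparisons are differences between single libraries, with no test and no p-value, and comparisons with iPS cells share that library. The number of arrays limits the precision. Genes were counted over all 22180 genes, dim ones included. Disagreement of probe sets was taken from 449 to 509 genes with 2 bright probe sets, as the SD of the gap between their log2 differences, scaled to a single probe set. A summed level is the sum of the unlogged values of a list.

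Members and gene lists were chosen with earlier results of these data known. The text names all members, genes of the FGF lists that were counted in a comparison (up to 6 a list and comparison), marker genes, dim ligands and the 3 genes most like each member of wide range. Kl, Dusp6, Eif2s3y, Xist, Sox2, Dnmt3b, Gata6, Krt18, Krt19, Cd68, Csf1r and Myh6 were named as examples. Alternatives were no filter, a filter at the 75th percentile (6.93), the brightest probe set, probe sets with several symbols, cyclic loess (limma 3.58.1), and arrays shifted to equal medians of 10 housekeeping genes or, added after the data were seen, of 63 ribosomal protein genes. Python 3.11.15 was used, and counting and likeness were tested on simulated data.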

Additional observations from a re-analysis of the deposited data

How the results depend on the processing

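Each group is 1 library, so no replicate could be left out. No paired analysis was possible because no group has more than 1 sample. No counted difference of a member changed sign under any of the alternatives run. All counts of members stayed the same without a filter, with probe sets of several symbols (which name none of the members) and under cyclic loess. With the 75th percentile filter, 1 member was higher and 1 lower in adult minus iPS and 0 were higher in DMSO and NRG-1 minus iPS, since Fgf2, Fgf5 and Fgfr3 then count as dim. With the brightest probe set, 1 member, Fgf10, was higher in DMSO minus iPS. The housekeeping shift left 1 member lower in DMSO and NRG-1 minus iPS and 1 in NRG-1 minus iPS, Fgf4 in both, and 2 lower in adult minus iPS, without Fgf5. The ribosomal protein shift, chosen after seeing the data, left 1 member lower in adult minus iPS, 1 in DMSO and NRG-1 minus iPS and 1 in NRG-1 minus iPS. It made 3 higher with DMSO and NRG-1 (Fgfr2, Fgfr3 and Fgfr4), 2 with NRG-1 (Fgfr2 and Fgfr3) and 3 with DMSO (Fgf5, Fgfr2 and Fgfr3). In neonatal minus iPS it made 3 higher, with Fgf7. Under it the members' median was 0.75 for DMSO and NRG-1 minus iPS and 0.84 for DMSO minus iPS, against 0.64 for all genes in both.

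These shifts move every gene alike. The median of all genes became 0.26 for NRG-1 minus iPS under the housekeeping shift, and 0.36, 0.42, 0.64, 0.38 and 0.64 for adult, neonatal, DMSO and NRG-1, NRG-1 and DMSO minus iPS under the ribosomal one, and each member moved by the same amount. Under the ribosomal shift all genes higher and lower than in iPS cells numbered 2837 and 1089 in the adult library (1802 and 1940 as deposited), 3079 and 744 in the neonatal one (1759 and 1524), 4509 and 675 with DMSO and NRG-1 (1778 and 1793), 2739 and 1145 with NRG-1 (1554 and 1999) and 4444 and 713 with DMSO (1799 and 1829). Under the housekeeping shift they were 2347 and 1375 with NRG-1. Adult minus neonatal had 278 and 489 under the housekeeping and 273 and 496 under the ribosomal shift (332 and 385), and 203 higher with the 75th percentile filter. NRG-1 minus DMSO had 172 and 119, and 16 and 554 (48 and 238), and DMSO and NRG-1 minus NRG-1 78 and 104, and 441 and 10 (144 and 39), or 65 lower with no filter. DMSO and NRG-1 minus DMSO had 11 higher under the housekeeping shift, 14 lower with probe sets of several symbols, 22 and 28 with no filter and 0 and 1 with the 75th percentile filter (6 and 7). Single housekeeping genes differed from iPS cells by -1.57 to 3.47, so the choice of genes for such a shift matters.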

Other observations

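The epithelial splicing regulators of FGF receptors did not run together in all libraries. Esrp1, which promotes that form of Fgfr2, had a level of 4.29 in the adult library, 4.32 in the neonatal one, 7.22 with DMSO and NRG-1, 7.04 with NRG-1, 7.32 with DMSO and 6.49 in iPS cells. The heart-derived libraries were the lowest, and the difference from iPS cells was -2.20 and -2.18 in the adult and neonatal libraries. Its relative Esrp2 had 7.15, 6.19, 7.81, 7.66, 7.96 and, in iPS cells, 6.07, so the adult library stood near the cultures for Esrp2 but not for Esrp1. Ptbp1 and Rbfox2, regulators with other targets as well, were not counted in any comparison. The level of Fgfr2 as a whole differed by less than 2-fold from iPS cells in 4 of these 5 libraries, and its splice forms were not analysed here.

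The FGF homologous factors, which stay inside the cell and act on sodium channels, were near or below the median of all values. Fgf12 and Fgf14 were below it in all 6 libraries. Fgf11 and Fgf13 reached at most 5.30 and 5.37, and no difference of the 4 genes was counted in any of the 9 comparisons. The widest from iPS cells was that of Fgf11 in the neonatal library, -1.28, with both values below the median.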
